A study of Homo sapiens with 8 samples.

Results

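This account covers 42 genes of glucose handling and the hypoxia response in HepG2 cells treated with either of a pair of BET inhibitors. They were chosen by gene symbol: 3 glucose transporters, the enzymes of glycolysis and gluconeogenesis, enzymes that set the fate of pyruvate, hypoxia target genes and the 2 alpha subunits of the hypoxia-inducible factors (HIF). Of the 42, 39 had a probe set of their own among the 17845 genes tested. PGAM1 was represented only by probe sets that it shares with PGAM4, and TPI1 and CA9 are not analysed here. HepG2 is a human liver tumour line. Its cells were kept for 4 h with JQ1 at 500 nM (2 arrays), with RVX-208 at 5000 nM (3 arrays) or with vehicle alone (3 DMSO arrays), and DMSO was at 0.1% in all 3 groups. A further JQ1 sample is not analysed here. RNA was read on Affymetrix Human Gene 1.0 ST arrays, and the values are log2 signals after RMA normalisation by the authors.

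Glucose enters cells through facilitative transporters of the SLC2A family and is trapped by hexokinases. Glycolysis then breaks it down to pyruvate, which is reduced to lactate or carried into mitochondria, and gluconeogenesis in liver runs the path in reverse with a few enzymes of its own. HIF alpha subunits are marked for destruction by prolyl hydroxylases (the EGLN enzymes) while oxygen is present. At low oxygen they accumulate, pair with ARNT and bind short promoter and enhancer motifs near many genes of glucose uptake and glycolysis. JQ1 and RVX-208 both bind the bromodomains of BET proteins, chromatin readers of acetylated histones. RVX-208 prefers the second of each protein's paired bromodomains. None of the 8 samples is labelled as kept at low oxygen.

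The line showed its hepatocyte character: group means of the 9 tested hepatocyte markers lay between 10.61 and 13.62 with JQ1, between 10.61 and 13.46 with RVX-208 and between 10.5 and 13.44 with DMSO. Fibroblast markers (6 tested) reached at most 7.42 with JQ1, 7.38 with RVX-208 and 7.51 with DMSO, and endothelial markers (5 tested) at most 8.08 with JQ1, 8.22 with RVX-208 and 8.17 with DMSO. Of 5 blood markers, LYZ was the bright one, at group means of 13.28 with JQ1, 13.26 with RVX-208 and 13.19 with DMSO. PTPRC, which marks all white blood cells, stood at 3.39 with JQ1, 3.51 with RVX-208 and 3.50 with DMSO. Among these other-cell markers PDGFRB was lower with JQ1 (log2 fold change −0.30, adjusted p = 0.00574) and with RVX-208 (−0.24, adjusted p = 0.0362), and TEK was lower with JQ1 (−0.41, adjusted p = 0.0482). Their part in the results was not tested. Median signals of the arrays ran from 7.26 to 7.31.

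Promoter sequences are shown for 6 of the 8 members that passed a test against DMSO: SLC2A2, HK2, ALDOC and PCK2 passed with both compounds, as did BNIP3L, which is named only, and ADM and ANKRD37 are the hypoxia targets that passed with JQ1 alone. Each run is the 250 bases before the annotated start in RefSeq (GRCh38.p14), 5′ to 3′ on the gene's strand. Capitals mark the core of the hypoxia response element, ACGTG or GCGTG, on either strand, where the reverse strand reads CACGT or CACGC. The E-box CACGTG, bound by MYC, MLX and their relatives, contains the core on both strands.
HK2, chr2:74833877-74834126, plus strand: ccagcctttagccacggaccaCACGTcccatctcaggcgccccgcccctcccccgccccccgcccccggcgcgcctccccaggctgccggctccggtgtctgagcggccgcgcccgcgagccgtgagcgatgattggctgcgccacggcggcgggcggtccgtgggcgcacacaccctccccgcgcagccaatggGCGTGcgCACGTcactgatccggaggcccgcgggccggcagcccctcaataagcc
SLC2A2, chr3:171026721-171026970, minus strand: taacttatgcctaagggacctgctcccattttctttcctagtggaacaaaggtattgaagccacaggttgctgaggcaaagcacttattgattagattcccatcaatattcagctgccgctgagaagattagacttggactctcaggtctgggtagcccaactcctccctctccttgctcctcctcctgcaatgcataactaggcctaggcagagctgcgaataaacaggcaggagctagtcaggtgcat
ALDOC, chr17:28576896-28577145, minus strand: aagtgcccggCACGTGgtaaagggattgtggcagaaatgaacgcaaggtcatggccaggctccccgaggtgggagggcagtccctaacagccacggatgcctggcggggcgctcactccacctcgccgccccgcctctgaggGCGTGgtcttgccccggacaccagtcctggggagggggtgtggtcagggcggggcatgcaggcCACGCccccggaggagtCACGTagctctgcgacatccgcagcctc
PCK2, chr14:24094061-24094310, plus strand: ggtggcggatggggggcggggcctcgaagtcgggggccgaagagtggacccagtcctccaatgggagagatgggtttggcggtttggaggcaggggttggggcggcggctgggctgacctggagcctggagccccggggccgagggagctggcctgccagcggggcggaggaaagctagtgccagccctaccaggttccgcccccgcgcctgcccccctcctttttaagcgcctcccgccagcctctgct
ADM, chr11:10304823-10305072, plus strand: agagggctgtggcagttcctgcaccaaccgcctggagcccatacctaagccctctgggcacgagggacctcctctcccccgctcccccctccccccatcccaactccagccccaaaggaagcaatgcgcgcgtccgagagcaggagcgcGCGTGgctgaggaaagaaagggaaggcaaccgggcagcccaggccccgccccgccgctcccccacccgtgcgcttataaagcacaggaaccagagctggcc
ANKRD37, chr4:185396591-185396840, plus strand: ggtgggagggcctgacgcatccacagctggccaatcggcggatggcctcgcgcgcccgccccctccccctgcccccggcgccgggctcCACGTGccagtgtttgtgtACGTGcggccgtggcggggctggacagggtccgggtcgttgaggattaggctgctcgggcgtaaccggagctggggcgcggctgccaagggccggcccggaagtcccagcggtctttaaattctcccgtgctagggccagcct

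The 2 largest falls among the members, SLC2A2 and HK2, differ in these promoters: HK2 has 3 cores, at 229, 55 and 48 bases before the start, and SLC2A2 has 0, as has SLC2A1, whose promoter is not shown. Among the genes that rose, ALDOC has 5 cores and 1 E-box, ANKRD37 has 3 cores and 1 E-box, ADM has 1 core and PCK2 has 0. LDHA, PGK1 and BNIP3, which passed no test against DMSO, also hold cores within the window. A core was present in 21 of the 36 member promoters found in the table (58.3%), against 43.1% of all 27305 promoters of the same length. The E-box was present in 5 of 36 (13.9%), against 6.49% of all. A match describes letters in this window and says nothing of binding.

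**Figure D1:**
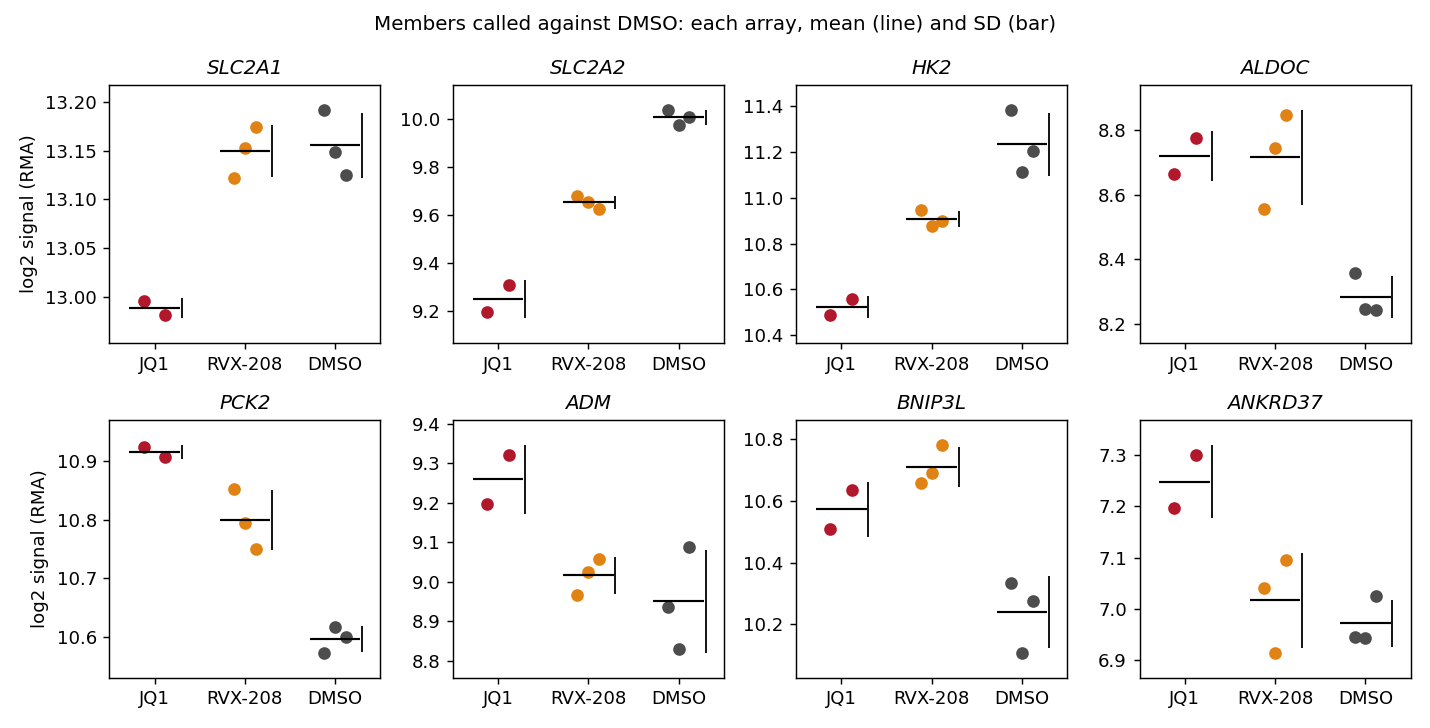
Log2 signal (RMA) of the 8 members that passed the test against DMSO with at least 1 compound, 1 panel per gene. Points are single arrays (JQ1 n = 2, RVX-208 n = 3, DMSO n = 3), lines are group means and bars are SD; SLC2A2 and HK2 are lowest with JQ1, intermediate with RVX-208 and highest with DMSO, with no overlap between groups, and each panel has its own vertical scale.

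With JQ1, SLC2A1, SLC2A2 and HK2 fell, while ALDOC, PCK2 and 3 hypoxia targets (ADM, ANKRD37 and BNIP3L) rose. Of the 39 members, 5 rose and 3 fell against DMSO (limma, Benjamini-Hochberg adjusted p under 0.05 over 17845 genes). That is 20.5%, against 22.8% of all genes tested (10.7% higher, 12.0% lower), a share near the background. The members' median log2 fold change was 0.01, against −0.04 over all genes. The JQ1 and DMSO arrays did not overlap for 21 members, 53.8% against 50.4% of all genes: JQ1 was above for 11 members (21.3% of all genes) and below for 10 (29.2% of all genes). Without DMSO array 2 the count of called members was 5, all among the 8. Without JQ1 array 2 it was also 5, but only 3 of the 8 calls were kept (SLC2A2, HK2 and PCK2), and PFKFB2 and PDK1 were added. Array signals come from bulk RNA, so fewer cells of a type and less RNA per cell cannot be told apart. The directions given hold relative to the authors' normalisation: centring each array on 8 housekeeping genes shifted the median of all genes by −0.20 for JQ1 and −0.11 for RVX-208 (log2), and 4 of the 8 JQ1 calls (SLC2A1, SLC2A2, HK2 and ALDOC) and 4 of the 5 RVX-208 calls (all but PCK2) remained. With that centring 1 of the 39 members rose and 18 fell with JQ1, where 787 of all 17845 genes rose and 9014 fell. For RVX-208, 272 of all genes rose and 3842 fell by centring. Every count given after centring includes this general shift. Before centring, each of the 8 housekeeping genes was itself higher on both JQ1 arrays than on any DMSO array, with log2 fold changes of 0.09 to 0.42, and B2M (0.42, adjusted p = 0.00123) and GUSB (0.22, 0.0245) passed the test.

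Among the glucose transporters, SLC2A2 changed most. SLC2A2 (GLUT2, probe set 8092083) is the low-affinity transporter typical of hepatocytes and beta cells. Its log2 signal was 9.19 and 9.31 on the JQ1 arrays, 9.68, 9.66 and 9.63 on the RVX-208 arrays, and 10.04, 9.98 and 10.01 on the DMSO arrays. All JQ1 arrays lay below all RVX-208 arrays, and all of those lay below the DMSO arrays. The fall with JQ1 was −0.76 ± 0.06 (log2 fold change ± SE; 0.591-fold, adjusted p = 7.34e-05), and the call held in all 8 fits that left out 1 array. With RVX-208 it was −0.35 ± 0.05 (0.782-fold, adjusted p = 0.0165), a call that ended without DMSO array 3 (adjusted p = 0.0549), RVX-208 array 2 (0.0518) or RVX-208 array 3 (0.0737). JQ1 arrays were lower than RVX-208 arrays by −0.40 ± 0.06 (adjusted p = 0.00335), which held in all 8 such fits.

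SLC2A1 (GLUT1, probe set 7915472), the basal transporter of most cells, had signals of 13.00 and 12.98 with JQ1, 13.12, 13.15 and 13.17 with RVX-208, and 13.19, 13.15 and 13.13 with DMSO. The JQ1 arrays lay just below all others. The difference of −0.17 ± 0.05 against DMSO passed narrowly (adjusted p = 0.0466) and missed with any 1 of the 8 arrays left out (adjusted p from 0.0604 to 0.169). RVX-208 and DMSO arrays overlapped (−0.01 ± 0.05, adjusted p = 0.946). SLC2A3 (GLUT3), a high-affinity transporter best known from neurons, had 11.74 and 11.85 with JQ1, 11.86 to 12.11 with RVX-208 and 11.98 to 12.08 with DMSO. Its difference of −0.22 ± 0.08 for JQ1 did not pass (adjusted p = 0.0920), though it did without RVX-208 array 3 (0.0477). It also passed after housekeeping centring (−0.42, adjusted p = 0.00371).

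In upper glycolysis, HK2 and ALDOC moved in opposite directions and the 6 other enzymes did not pass with either compound. HK2 (probe set 8042942) is the high-affinity hexokinase that rises in many tumours and is a classic HIF target. It had signals of 10.49 and 10.56 with JQ1, 10.95, 10.88 and 10.90 with RVX-208, and 11.38, 11.11 and 11.20 with DMSO. The 3 groups did not overlap, and the DMSO arrays were the most spread. HK2 fell by −0.71 ± 0.08 with JQ1 (0.611-fold, adjusted p = 0.000492; called in all 8 left-out fits). With RVX-208 it fell by −0.33 ± 0.07 (0.798-fold, adjusted p = 0.0391). That second call held only without DMSO array 2 (0.0482): it ended without DMSO array 1 (0.0557) or 3 (0.0953), JQ1 array 1 or 2 (0.0564 each), and RVX-208 array 1 (0.0717), 2 (0.101) or 3 (0.123). JQ1 arrays were lower than RVX-208 arrays by −0.39 ± 0.08 (adjusted p = 0.0183), a call that ended without JQ1 array 1 (0.117) or 2 (0.0690) or RVX-208 array 1 (0.0564) or 3 (0.0515).

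ALDOC (probe set 8013660), the aldolase isoform known from brain, rose with both compounds. Its signals were 8.66 and 8.77 with JQ1, 8.56, 8.74 and 8.85 with RVX-208, and 8.36, 8.25 and 8.24 with DMSO. Every treated array lay above every DMSO array, and the JQ1 and RVX-208 arrays overlapped. The rise was 0.44 ± 0.09 with JQ1 (1.35-fold, adjusted p = 0.00825) and 0.43 ± 0.08 with RVX-208 (1.35-fold, adjusted p = 0.0253). The JQ1 call ended without JQ1 array 2 (0.0676). The RVX-208 call ended without DMSO array 2 (0.0635) or 3 (0.0823) or RVX-208 array 2 (0.0708) or 3 (0.0861). ALDOA, the main aldolase of muscle and most dividing cells, had 11.39 and 11.35 with JQ1, 11.33 to 11.39 with RVX-208 and 11.33 to 11.38 with DMSO. Its difference was 0.01 for JQ1 (95% interval −0.11 to 0.13).

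HK1, the widely expressed hexokinase, and GPI, the isomerase of the second step, gave 0.05 and 0.01 for JQ1 and 0.05 and 0.03 for RVX-208. The phosphofructokinase genes, the committed step, gave −0.00 (PFKL), −0.16 (PFKM) and 0.01 (PFKP) for JQ1, with RVX-208 at 0.02, −0.01 and 0.05. The lowest adjusted p among these 5 genes was 0.216, for PFKM with JQ1. After housekeeping centring PFKM (−0.36, adjusted p = 0.0157) and GPI (−0.19, 0.0236) fell with JQ1. The 4 PFKFB genes encode the bifunctional enzymes that set the level of the chief activator of phosphofructokinase. With either compound 0 of 4 passed, where 22.8% of all genes passed with JQ1 and 6.28% with RVX-208. PFKFB2 had 7.74 and 7.40 with JQ1 against 7.34 to 7.39 with DMSO (0.20 ± 0.10, adjusted p = 0.172). Its 2 JQ1 arrays stood apart from each other, and without JQ1 array 2 the difference was 0.37 (adjusted p = 0.0226). PFKFB3, the isoform most linked to proliferating and hypoxic cells, had 8.16 and 8.13 with JQ1, 7.80 to 8.32 with RVX-208 and 7.82 to 8.02 with DMSO (adjusted p = 0.316 for JQ1). PFKFB1, the liver and muscle isoform, gave −0.11 for JQ1 and 0.12 for RVX-208, and PFKFB4, the testis isoform, gave 0.05 and 0.22. With housekeeping centring PFKFB1 fell with JQ1 (−0.31, adjusted p = 0.0418).

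**Figure D2:**
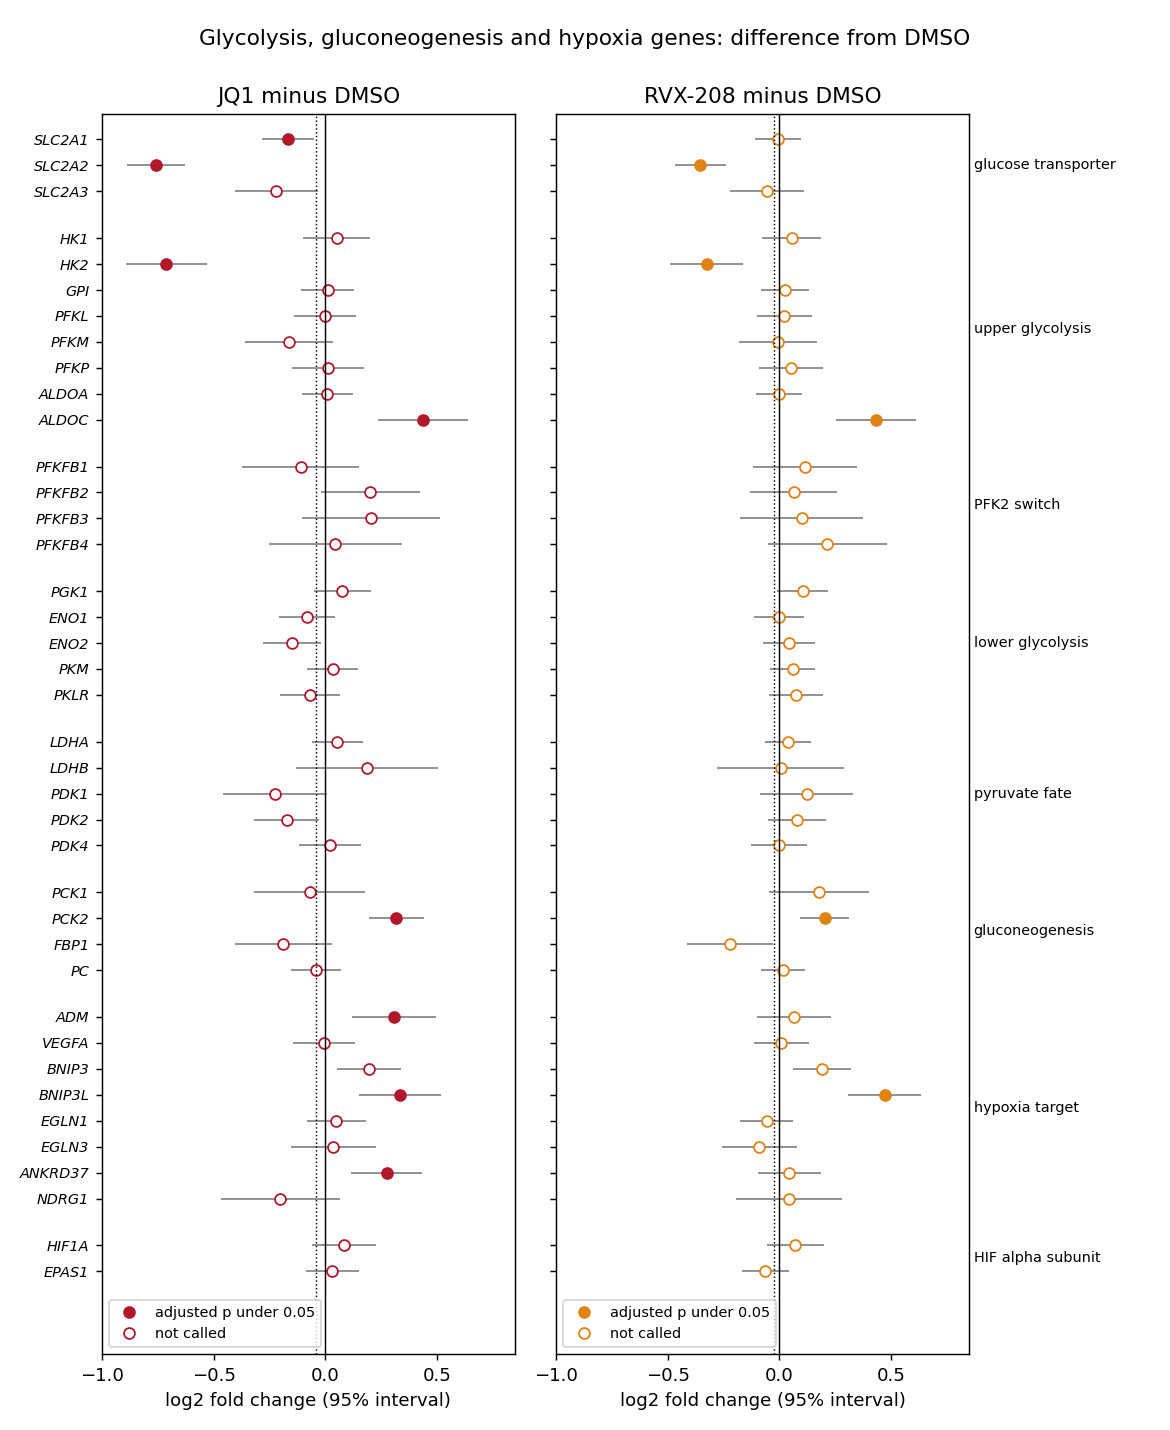
Log2 fold change against DMSO of the 39 tested members, by role, for JQ1 (left) and RVX-208 (right). Points are fitted differences, lines their 95% intervals, filled points passed at adjusted p under 0.05, and the dotted line is the median of all genes; 8 points are filled for JQ1 and 5 for RVX-208, with most enzymes near 0.

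Lower glycolysis, from PGK1 to pyruvate kinase, showed no called member with either compound: 0 of 5. Over all genes 22.8% passed with JQ1 and 6.28% with RVX-208, so a count of 0 in 5 genes does not set this list apart. After housekeeping centring 3 of 5 fell with JQ1: ENO1 (−0.28, adjusted p = 0.0102), ENO2 (−0.35, 0.00398) and PKLR (−0.26, 0.0140). By that centring 9014 of all 17845 genes fell. PGK1, PKM and ENO1, the bulk enzymes of this stretch, had group means of 12.25, 12.19 and 13.35 with JQ1, of 12.28, 12.22 and 13.43 with RVX-208, and of 12.17, 12.16 and 13.44 with DMSO. Their JQ1 differences were 0.08 (95% interval −0.05 to 0.20), 0.03 (−0.08 to 0.15) and −0.08 (−0.21 to 0.04). None of these intervals reaches the size of the HK2 fall. ENO2, the enolase isoform of neurons and neuroendocrine cells, had 9.34 and 9.29 with JQ1, 9.49 to 9.54 with RVX-208 and 9.42 to 9.54 with DMSO. Its JQ1 arrays lay below all others, but the difference of −0.15 ± 0.06 did not pass (adjusted p = 0.0962). PKLR, the pyruvate kinase of liver and red cells, gave −0.07 for JQ1 and 0.07 for RVX-208.

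Of the 5 members that set the fate of pyruvate, 0 passed against DMSO. Over all genes 22.8% passed with JQ1 and 6.28% with RVX-208. After housekeeping centring 2 of the 5 fell with JQ1: PDK1 (−0.42, adjusted p = 0.0076) and PDK2 (−0.37, 0.0028). By that centring 9014 of all 17845 genes fell. LDHA, which reduces pyruvate to lactate, had 13.09 and 13.13 with JQ1, 13.08 to 13.10 with RVX-208 and 13.03 to 13.07 with DMSO (JQ1 0.05, 95% interval −0.06 to 0.17). LDHB and PDK4 were dim: their means of 4.23 and 5.20 over all arrays were above those of only 7.1% and 18.9% of all genes. LDHB, the heart-type subunit, gave 0.19 for JQ1 (95% interval −0.13 to 0.51) and 0.01 for RVX-208, and PDK4, the fasting-induced kinase, gave 0.02 (−0.12 to 0.16) and −0.00. PDK2 (probe set 8008263), a kinase that switches off pyruvate dehydrogenase, had 9.05 and 8.92 with JQ1, 9.20, 9.27 and 9.23 with RVX-208, and 9.18, 9.19 and 9.09 with DMSO. The compounds sat on opposite sides of DMSO, at −0.17 ± 0.06 for JQ1 (adjusted p = 0.0886) and 0.08 ± 0.06 for RVX-208 (0.390). JQ1 arrays were lower than RVX-208 arrays by −0.25 ± 0.06 (adjusted p = 0.0395). That call ended in 7 of 8 left-out fits: without DMSO array 1 (0.0540) or 2 (0.0582), JQ1 array 1 (0.0587) or 2 (0.216), or RVX-208 array 1 (0.0695), 2 (0.118) or 3 (0.0975). Cyclic loess ended it too (0.0531). PDK1, the HIF-inducible kinase of this family, had 9.34 and 9.71 with JQ1, 9.77, 9.91 and 9.94 with RVX-208, and 9.78, 9.74 and 9.74 with DMSO. The low JQ1 array 1 carried most of its difference of −0.22 (adjusted p = 0.155), which was −0.41 without JQ1 array 2 (0.0173).

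Among 4 gluconeogenic enzymes, PCK2 rose with both compounds, where 10.7% of all genes rose with JQ1 and 3.06% with RVX-208. PCK2 (probe set 7973530) is the mitochondrial form of phosphoenolpyruvate carboxykinase and a known target of ATF4 in amino acid stress. It had 10.92 and 10.91 with JQ1, 10.85, 10.79 and 10.75 with RVX-208, and 10.57, 10.62 and 10.60 with DMSO. The 3 groups did not overlap, with little spread inside each. PCK2 rose by 0.32 ± 0.05 with JQ1 (1.25-fold, adjusted p = 0.00335; called in all 8 left-out fits), though not after housekeeping centring (0.12, adjusted p = 0.141). With RVX-208 it rose by 0.20 ± 0.05 (1.15-fold, adjusted p = 0.0449), and the call ended with any 1 of the 8 arrays left out (0.0638 to 0.109), after cyclic loess (0.0866) and after housekeeping centring (0.09, 0.261). PCK1, the cytosolic form and the hormone-regulated step, had 6.48 and 6.47 with JQ1, 6.52 to 6.93 with RVX-208 and 6.45 to 6.62 with DMSO, and did not pass (adjusted p = 0.693 and 0.268). FBP1, the bisphosphatase of gluconeogenesis, gave −0.19 for JQ1 and −0.22 for RVX-208 (adjusted p = 0.200 and 0.138). PC, pyruvate carboxylase, gave −0.04 and 0.02. After housekeeping centring FBP1 fell with JQ1 (−0.38, adjusted p = 0.00935) and with RVX-208 (−0.33, 0.0266), and PC fell with JQ1 (−0.24, 0.00913).

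Of the 8 hypoxia targets, 3 rose with JQ1 and 1 with RVX-208, and 0 fell. Over all genes 10.7% rose with JQ1 and 3.06% with RVX-208. After housekeeping centring 0 of the 8 rose and 2 fell with JQ1, where 787 of all 17845 genes rose and 9014 fell. The list median was 0.12 for JQ1, against −0.04 over all genes. After that centring it was −0.07, against −0.24 over all genes. BNIP3L (NIX, probe set 8145454), a receptor that marks mitochondria for autophagy, had 10.51 and 10.64 with JQ1, 10.66, 10.69 and 10.78 with RVX-208, and 10.33, 10.11 and 10.27 with DMSO. All treated arrays lay above all DMSO arrays, with RVX-208 arrays above JQ1 arrays. It rose by 0.33 ± 0.08 with JQ1 (1.26-fold, adjusted p = 0.0180) and by 0.47 ± 0.07 with RVX-208 (1.39-fold, adjusted p = 0.0181), while the difference between the treatments did not pass (−0.14, 95% interval −0.32 to 0.05, adjusted p = 0.345). The JQ1 call ended without JQ1 array 2 (0.126) and after housekeeping centring (0.14, 0.204). The RVX-208 call ended without DMSO array 3 (0.0549) or RVX-208 array 2 (0.0522) or 3 (0.0772). Its relative BNIP3, another such receptor, had 11.66 and 11.70 with JQ1, 11.60, 11.69 and 11.73 with RVX-208, and 11.55, 11.42 and 11.46 with DMSO. No treated array overlapped with DMSO, and the differences of 0.20 ± 0.06 and 0.19 ± 0.06 did not pass (adjusted p = 0.0574 and 0.0778). Without DMSO array 1 the JQ1 difference passed (0.23, 0.0451).

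ADM (probe set 7938390), the precursor of the vasodilator adrenomedullin, had 9.20 and 9.32 with JQ1, 8.97, 9.02 and 9.06 with RVX-208, and 8.94, 8.83 and 9.09 with DMSO. Only the JQ1 arrays lay above all DMSO arrays. ADM rose by 0.31 ± 0.08 with JQ1 (1.24-fold, adjusted p = 0.0273), and RVX-208 gave 0.07 ± 0.07 (adjusted p = 0.589). The JQ1 call ended without DMSO array 1 (0.0634) or 2 (0.0690), JQ1 array 1 (0.0547) or 2 (0.170), and after housekeeping centring (0.11, 0.295). ANKRD37 (probe set 8098604), a small ankyrin repeat protein, had 7.20 and 7.30 with JQ1, 7.04, 6.92 and 7.10 with RVX-208, and 6.95, 6.94 and 7.03 with DMSO. It rose by 0.28 ± 0.07 with JQ1 (1.21-fold, adjusted p = 0.0216), and RVX-208 gave 0.04 ± 0.06 (0.666). Its JQ1 call ended without DMSO array 1 (0.0546) or 2 (0.0609), without JQ1 array 2 (0.140), and after housekeeping centring (0.08, 0.397). For ADM and ANKRD37 the differences of JQ1 from RVX-208 did not pass (0.24, adjusted p = 0.101, and 0.23, 0.0701), so the compounds are not shown to differ there.

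The other hypoxia targets did not pass with either compound, but VEGFA (−0.20, adjusted p = 0.0249) and NDRG1 (−0.40, 0.0202) were the 2 that fell with JQ1 after housekeeping centring. VEGFA, the main angiogenic factor, had 9.45 and 9.43 with JQ1, 9.40, 9.42 and 9.55 with RVX-208, and 9.45, 9.48 and 9.41 with DMSO. Its JQ1 difference was −0.00, with a 95% interval of −0.14 to 0.14. EGLN1 and EGLN3, the oxygen-sensing hydroxylases that are themselves HIF targets, gave 0.05 and 0.04 for JQ1 and −0.06 and −0.09 for RVX-208. NDRG1, a stress-responsive protein, had 9.39 and 9.51 with JQ1, 9.54 to 9.88 with RVX-208 and 9.47 to 9.76 with DMSO (JQ1 −0.20, 95% interval −0.47 to 0.07, adjusted p = 0.263). The transcripts of the alpha subunits themselves gave 0.09 ± 0.06 (HIF1A, adjusted p = 0.372) and 0.03 ± 0.05 (EPAS1, 0.699) for JQ1, and 0.07 and −0.06 for RVX-208 (0.434 and 0.397). The RVX-208 arrays of EPAS1 (10.74 to 10.78) lay below its DMSO arrays (10.80 to 10.85), as for 18.5% of all genes. After housekeeping centring EPAS1 fell with JQ1 (−0.16, adjusted p = 0.0400) and with RVX-208 (−0.17, 0.044). HIF1A did not pass with that centring (0.141 and 0.603). HIF alpha subunits are controlled largely at the protein level, which arrays do not read.

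RVX-208 at 5000 nM moved 5 of the 39 members, 3 up (ALDOC, PCK2, BNIP3L) and 2 down (SLC2A2, HK2). That is 12.8%, against 6.28% of all genes (3.06% higher, 3.22% lower), and the members' median was 0.04, against −0.02 over all genes. The RVX-208 and DMSO arrays did not overlap for 12 members, 30.8% against 34.1% of all genes: RVX-208 was above for 8 (15.6% of all genes) and below for 4 (18.5%). All 5 also passed with JQ1 in the same direction. The comparisons share the 3 DMSO arrays, and 4.45% of all genes passed in both. The RVX-208 count fell with any 1 RVX-208 or DMSO array left out: 3 members passed without DMSO array 1 or 2 or RVX-208 array 1. It was 0 without DMSO array 3, RVX-208 array 2 or RVX-208 array 3 (6, 6 and 7 members with an unadjusted p under 0.05). Over all genes the count of 1120 became 52 to 705 in these fits. JQ1 arrays enter this comparison only through the shared spread: the HK2 difference stayed at −0.33 without either.

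**Figure D3:**
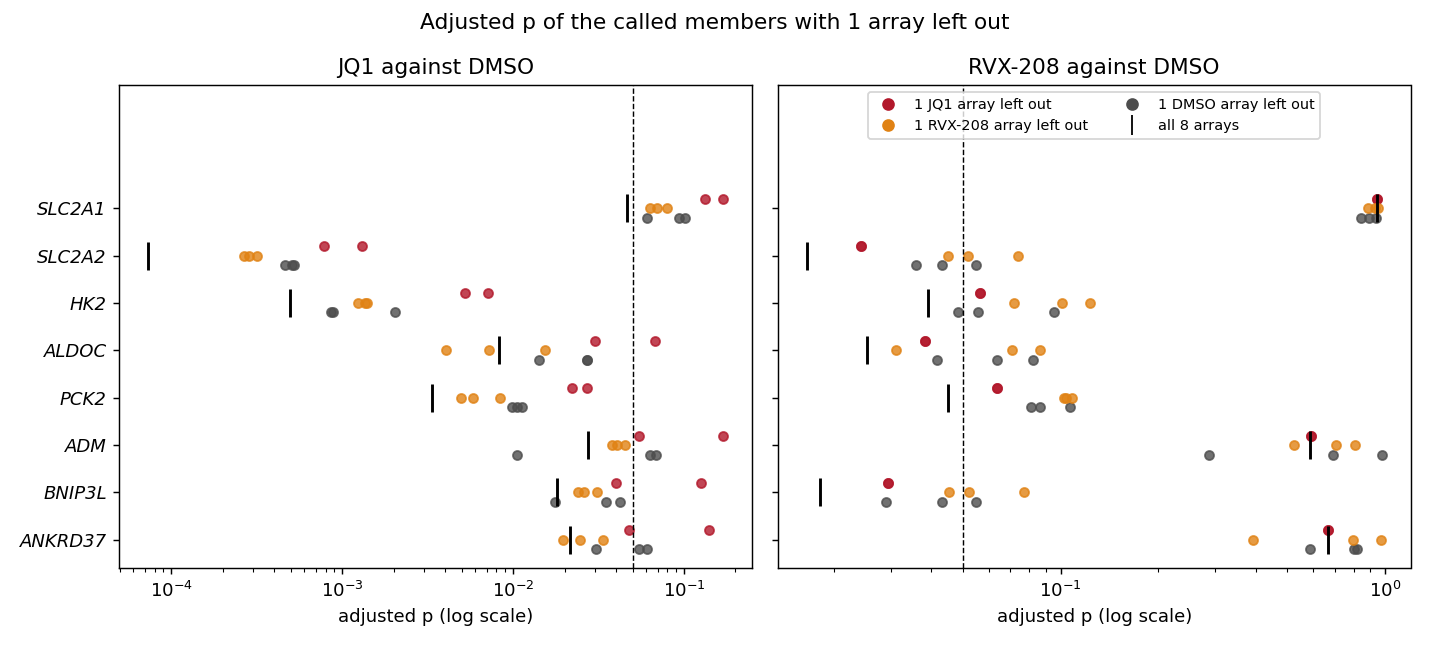
Adjusted p (log scale) of the 8 called members in fits that leave out 1 array each, for JQ1 (left) and RVX-208 (right) against DMSO. Each point is 1 fit coloured by the group of the missing array, black marks are the fit of all 8 arrays and the dashed line is 0.05; with JQ1 the points of SLC2A2, HK2 and PCK2 stay left of the line, with RVX-208 no gene keeps all its points left of it.

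Between the treatments, 3 members were lower with JQ1 than with RVX-208 (SLC2A2, HK2 and PDK2) and 0 were higher. That is 7.69%, against 10.9% of all genes (4.16% higher, 6.78% lower), with a median of −0.02 for the members and 0.00 over all genes. The arrays did not overlap for 20 members, 51.3% against 42.8% of all genes: JQ1 was above for 5 (20.4% of all genes) and below for 15 (22.4%). The count was 1 without JQ1 array 1, RVX-208 array 1 or RVX-208 array 3. The doses differed, 500 nM of JQ1 against 5000 nM of RVX-208, so compound and dose cannot be told apart. For ALDOC the treatments gave nearly the same level, with a difference of 0.00 and a 95% interval of −0.20 to 0.21. For PCK2 the difference was 0.12 (−0.01 to 0.24, adjusted p = 0.223).

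Other genes of the same pathways were followed in 8 lists, 118 named and 105 tested. With JQ1, 22 rose and 14 fell, 34.3% against 22.8% of all genes, with a median of 0.02. With RVX-208, 5 rose and 4 fell (8.57% against 6.28%, median 0.03). After housekeeping centring 7 rose and 45 fell with JQ1, and 3 rose and 16 fell with RVX-208. Of all 17845 genes, 787 rose and 9014 fell with JQ1 by that centring, and 272 rose and 3842 fell with RVX-208. Between the treatments 8 were higher and 11 lower with JQ1 (18.1% against 10.9%). The JQ1 count was 23 without JQ1 array 1. The RVX-208 count was 4, 2 and 2 without DMSO arrays 1, 2 and 3 and 1, 2 and 1 without RVX-208 arrays 1, 2 and 3. Between the treatments it was 7 and 12 without JQ1 arrays 1 and 2, and 12, 10 and 10 without RVX-208 arrays 1, 2 and 3.

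**Figure D4:**
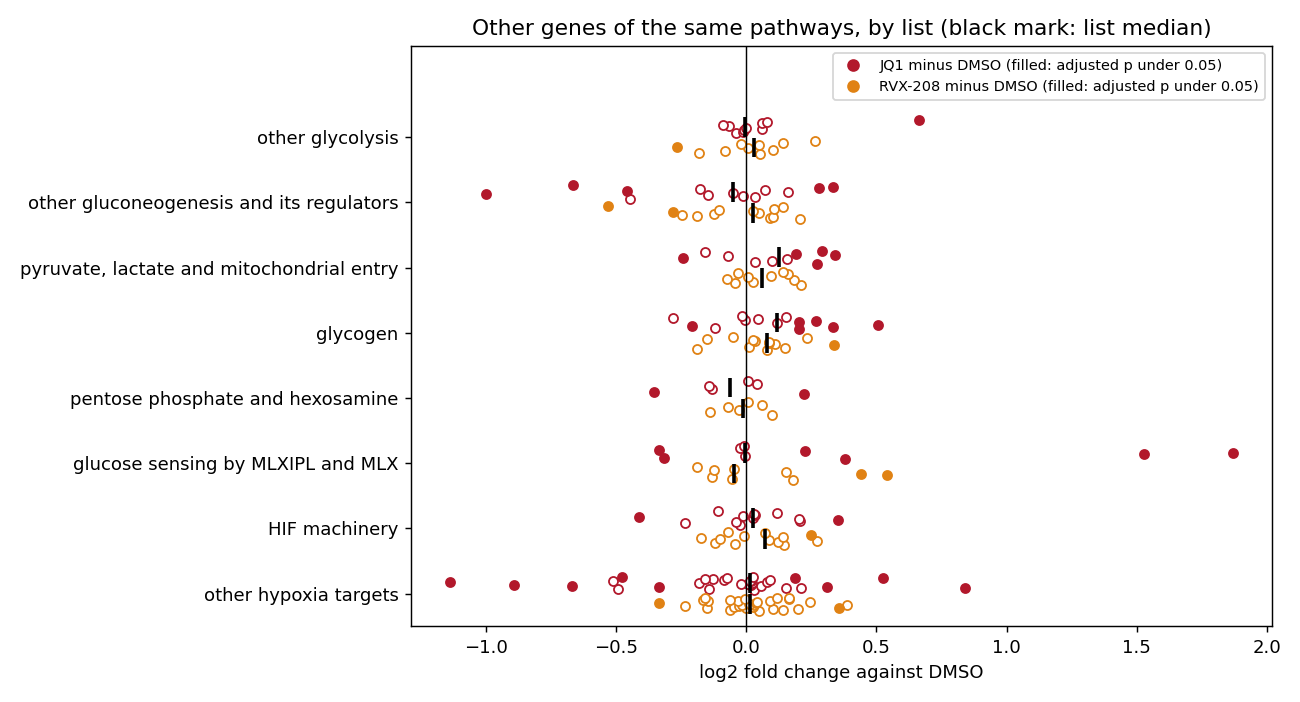
Log2 fold change against DMSO of the 105 other pathway genes in 8 lists, JQ1 above RVX-208 within each list. Each circle is 1 gene, filled where adjusted p was under 0.05, and black marks are list medians; the list medians lie near 0 while single genes such as ARRDC4 and TXNIP (right) or EPO and PPARGC1A (left) lie far from it.

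Among 31 other hypoxia targets, 4 rose and 5 fell with JQ1, where 10.7% of all genes rose and 12.0% fell. After housekeeping centring 2 of the 31 rose and 15 fell (median −0.18, against 0.02 before centring). By that centring 787 of all 17845 genes rose and 9014 fell (median −0.24). EPO, the hormone of red cell production and a standard hypoxia response of hepatoma cells, had 7.60 and 7.58 with JQ1, 8.32, 8.51 and 8.34 with RVX-208, and 8.76, 8.64 and 8.79 with DMSO. The 3 groups did not overlap. EPO fell by −1.14 ± 0.08 with JQ1 (0.455-fold, adjusted p = 4.56e-05) and by −0.34 ± 0.07 with RVX-208 (0.792-fold, adjusted p = 0.0306). JQ1 arrays were lower than RVX-208 arrays by −0.80 (adjusted p = 0.000592). The RVX-208 call ended without DMSO array 1, 2 or 3 or RVX-208 array 1 or 3 (0.0501 to 0.110). STC2, a secreted glycoprotein, had 7.91 and 7.92 with JQ1 against 8.93, 8.74 and 8.74 with DMSO, a fall of −0.89 ± 0.08 (adjusted p = 0.000221).

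KDM3A, a histone demethylase induced by HIF, had 9.81 and 9.93 with JQ1, 9.33, 9.33 and 9.50 with RVX-208, and 9.14, 8.97 and 8.98 with DMSO. Groups did not overlap, in the order opposite to EPO. It rose by 0.84 ± 0.08 with JQ1 (1.79-fold, adjusted p = 0.000235) and by 0.36 ± 0.07 with RVX-208 (adjusted p = 0.0321). The RVX-208 call ended without DMSO array 2 or 3 or any 1 RVX-208 array (0.0578 to 0.107). WSB1, a ubiquitin ligase substrate receptor, rose with JQ1 to 10.40 and 10.30, against 9.87, 9.83 and 9.78 with DMSO (0.52 ± 0.06, adjusted p = 0.000552). Of 13 HIF machinery genes, HIF1AN, which hydroxylates an asparagine of HIF alpha, rose with JQ1 (0.35 ± 0.09, adjusted p = 0.0192), and CREBBP, a HIF coactivator, fell (−0.41 ± 0.07, adjusted p = 0.00478). The list was called at 15.4% with JQ1, against 22.8% of all genes, and at 7.69% with RVX-208, against 6.28%. After housekeeping centring 0 of the 13 rose and 4 fell with JQ1, where 787 of all 17845 genes rose and 9014 fell. The HIF1AN call ended without DMSO array 3 (0.0515) or JQ1 array 1 (0.117) or 2 (0.0570) and after housekeeping centring (0.181). CUL2, the scaffold of the VHL ligase, rose with RVX-208 (0.25 ± 0.05, adjusted p = 0.0391), and that call ended with any 1 array left out (0.0537 to 0.125) and after housekeeping centring (0.108).

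**Figure D5:**
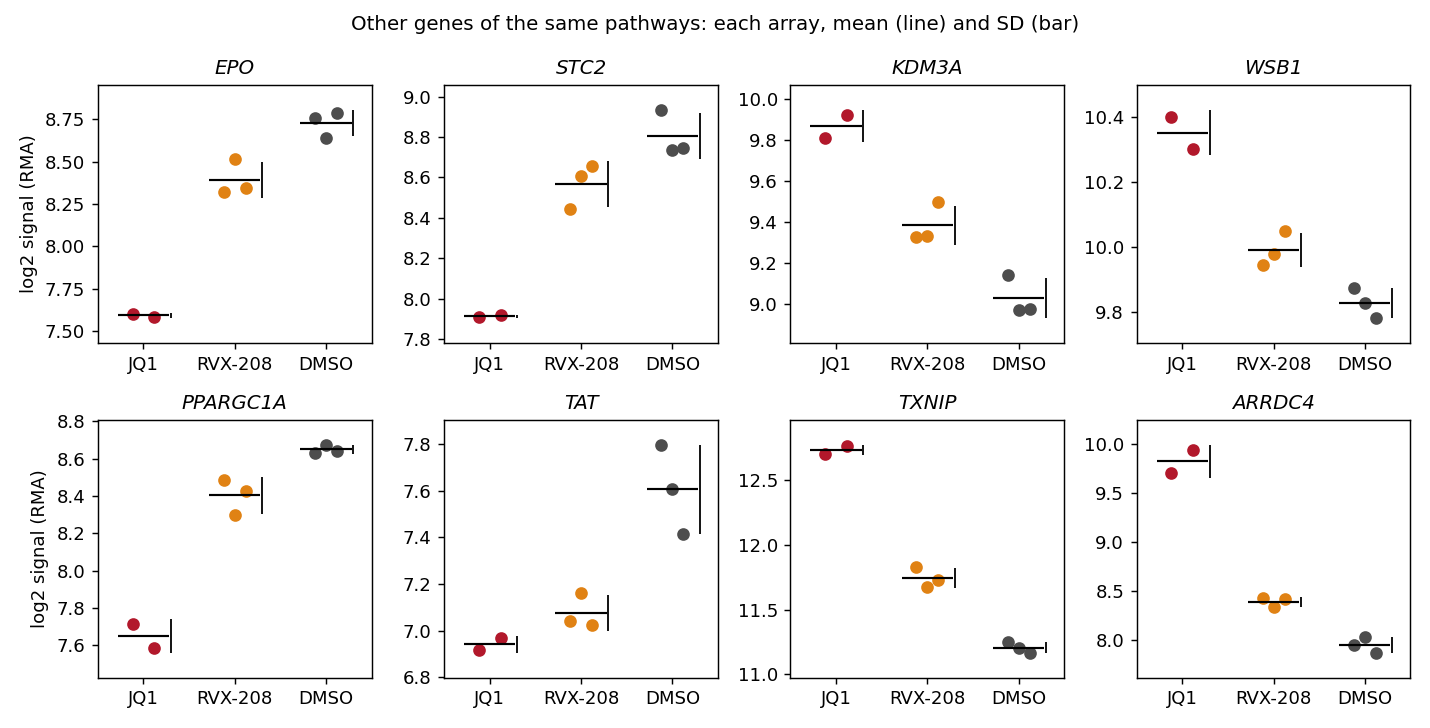
Log2 signal (RMA) of 8 other pathway genes, 1 panel each with its own vertical scale. Points are single arrays (JQ1 n = 2, RVX-208 n = 3, DMSO n = 3), lines are group means and bars are SD; in all 8 panels the RVX-208 mean lies between those of JQ1 and DMSO.

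Of 13 other genes of gluconeogenesis, PPARGC1A, TAT and CREB3L3 fell with JQ1 and 2 shuttle enzymes rose (all genes: 12.0% lower, 10.7% higher). After housekeeping centring 0 of the 13 rose and 9 fell, where 787 of all 17845 genes rose and 9014 fell. PPARGC1A, the coactivator that drives gluconeogenic genes in fasting liver, had 7.71 and 7.59 with JQ1, 8.49, 8.30 and 8.42 with RVX-208, and 8.63, 8.67 and 8.64 with DMSO. The RVX-208 arrays lay between the others. JQ1 lowered it to 0.501-fold of DMSO (SE 0.07 on the log2 scale, adjusted p = 5.73e-05), and RVX-208 gave −0.25 ± 0.06 (adjusted p = 0.0550). TAT, a hormone-induced liver aminotransferase, had 6.92 and 6.97 with JQ1, 7.04, 7.16 and 7.03 with RVX-208, and 7.80, 7.61 and 7.41 with DMSO, and fell with both (−0.66 ± 0.10, adjusted p = 0.00234; −0.53 ± 0.09, adjusted p = 0.0230). CREB3L3, a liver transcription factor of the fasting response, fell by −0.46 ± 0.06 with JQ1 (adjusted p = 0.000907) and by −0.28 ± 0.05 with RVX-208 (0.0257). With RVX-208, the TAT call ended without DMSO array 2 or any 1 RVX-208 array (0.0537 to 0.0861), and the CREB3L3 call without any 1 DMSO or RVX-208 array (0.0523 to 0.0947). MDH1 and GOT1, cytosolic enzymes of the malate-aspartate shuttle, rose by 0.33 ± 0.05 (adjusted p = 0.00173) and 0.28 ± 0.06 (0.00963) with JQ1, and neither passed after housekeeping centring (0.0866 and 0.271). The GOT1 call also ended without JQ1 array 1 (0.0703).

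TIGAR, a phosphatase that slows glycolysis, was the only called gene among 10 other glycolysis genes with JQ1. Over all genes 22.8% passed (10.7% higher, 12.0% lower). After housekeeping centring 1 of the 10 rose and 4 fell, where 787 of all 17845 genes rose and 9014 fell. TIGAR had 8.98 and 8.74 with JQ1, 8.41, 8.36 and 8.60 with RVX-208, and 8.18, 8.25 and 8.16 with DMSO, a rise of 0.66 ± 0.09 (1.58-fold, adjusted p = 0.00139). PGAM2, the muscle phosphoglycerate mutase, fell with RVX-208 (−0.27 ± 0.05, adjusted p = 0.0293), a call that ended without any 1 DMSO or RVX-208 array (0.0520 to 0.109). The strongest rises of all lists with JQ1 belonged to arrestins that restrain glucose uptake and are induced by the glucose sensor MLXIPL. ARRDC4 had 9.70 and 9.94 with JQ1, 8.43, 8.34 and 8.42 with RVX-208, and 7.95, 8.04 and 7.87 with DMSO, 3.65-fold and 1.36-fold above DMSO (adjusted p = 1.43e-05 and 0.0216). TXNIP had 12.71 and 12.76 with JQ1, 11.83, 11.68 and 11.73 with RVX-208, and 11.25, 11.20 and 11.17 with DMSO, 2.88-fold and 1.45-fold above DMSO (1.12e-05 and 0.00677). The RVX-208 call of TXNIP held in all 8 left-out fits, and that of ARRDC4 ended without DMSO array 3 or any 1 RVX-208 array (0.0539 to 0.0823). In that list of 9, 4 rose and 2 fell with JQ1 (all genes: 10.7% higher, 12.0% lower). KLF11, a repressor family member, and MLX, the partner of MLXIPL, were the 2 that fell (−0.34 ± 0.05, adjusted p = 0.00281, and −0.31 ± 0.06, 0.00622). After housekeeping centring 3 of the 9 rose and 3 fell, where 787 of all 17845 genes rose and 9014 fell. The MLX call ended without JQ1 array 2 (0.0547). Set directly against RVX-208 arrays, JQ1 arrays were higher for TXNIP (0.99 ± 0.06) and ARRDC4 (1.43 ± 0.08), each with an adjusted p of 0.000121, and both calls held in all 8 left-out fits.

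Of 13 glycogen genes, 5 rose and 1 fell with JQ1 (list median 0.12, all genes 10.7% higher, 12.0% lower). After housekeeping centring 1 rose and 3 fell (median −0.08). By that centring 787 of all 17845 genes rose and 9014 fell (median −0.24). GBE1, the branching enzyme, had 8.84 and 9.06 with JQ1, 8.77, 8.71 and 8.86 with RVX-208, and 8.54, 8.45 and 8.34 with DMSO. It rose by 0.51 ± 0.09 (1.42-fold, adjusted p = 0.00405) with JQ1 and by 0.34 ± 0.08 (1.26-fold, adjusted p = 0.0449) with RVX-208, where the call ended without any 1 DMSO or RVX-208 array (0.0518 to 0.146), after cyclic loess (0.0516) and after housekeeping centring (0.0689). GYG1, the glycogenin that primes glycogen, rose by 0.33 ± 0.06 with JQ1 (adjusted p = 0.00575), and GYG2, its liver form, fell by −0.21 ± 0.06 (0.0279). The GYG1 call ended without JQ1 array 1 (0.0506) and after housekeeping centring (0.119). The GYG2 call ended without DMSO array 1 (0.0666) or 2 (0.0526) or JQ1 array 1 (0.113) or 2 (0.102).

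Around the mitochondrial entry of pyruvate, 4 of 10 genes rose and 1 fell with JQ1 (all genes 10.7% higher, 12.0% lower), and 0 passed with RVX-208. After housekeeping centring 0 of the 10 rose and 3 fell with JQ1, where 787 of all 17845 genes rose and 9014 fell. MPC1, a subunit of the mitochondrial pyruvate carrier, had 10.45 and 10.48 with JQ1 against 10.16, 10.14 and 10.07 with DMSO (0.34 ± 0.05, adjusted p = 0.00261; 0.0614 after housekeeping centring). LDHD, which oxidises the mirror form of lactate, rose by 0.29 ± 0.06 (adjusted p = 0.00889), a call that ended without JQ1 array 1 (0.0630) and after housekeeping centring (0.219). DLAT, a core subunit of pyruvate dehydrogenase, fell by −0.24 ± 0.07 (adjusted p = 0.0338). Its call ended without DMSO array 1 (0.0797) or 2 (0.0703), JQ1 array 1 (0.190) or 2 (0.0598) or RVX-208 array 2 (0.0530). Of 6 pentose phosphate and hexosamine genes, 1 rose and 1 fell with JQ1 (all genes 10.7% higher, 12.0% lower). After housekeeping centring 0 of the 6 rose and 4 fell, where 787 of all 17845 genes rose and 9014 fell. RPIA, an isomerase that makes ribose phosphate, fell by −0.35 ± 0.05 with JQ1 (adjusted p = 0.00188). PGD, a dehydrogenase that yields NADPH, rose by 0.22 ± 0.07 (adjusted p = 0.0418), a call lost without DMSO array 2 or 3, any 1 JQ1 array or any 1 RVX-208 array (0.0547 to 0.224) and after housekeeping centring (0.779).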

How the data were processed

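RNA of 8 HepG2 samples was analysed as log2 values per probe set, which the authors made with RMA (R 2.15.3, limma 3.14.4), per the submitters' processing notes. Those notes are also the source for the tools of the authors' deposited limma table, which holds log2 fold changes, a score (F) and p-values; it served to verify the scale alone. Its fold changes equalled differences of group means within 1e-04 for 19815 (JQ1) and 19816 (RVX-208) of 19816 probe sets. The filter behind these probe sets is not given in the sources used here. Of them, 17859 carried 1 gene symbol, 997 several and 960 none. For 14 genes with several probe sets the brightest was used, leaving 17845 genes, and no coordinates of probe sets were used.

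A mean per group was fitted over all 8 arrays with limma 3.58.1 in R 4.3.3 (lmFit, eBayes, 8.55 degrees of freedom), two-sided, with Benjamini-Hochberg adjustment over all genes and calls at adjusted p under 0.05. The labels do not state whether samples came from separate cultures; the p-values therefore speak of the scatter among these arrays, which may be technical. Arrays carry no count, so their number limits the precision, and changes of dim probe sets can be compressed. The members, the lists and the rule for named genes were chosen with earlier results of these data known: every tested member, and per list of other pathway genes up to 2 highest and 2 lowest called per compound. LYZ, PTPRC, PDGFRB and TEK were picked from the marker lists after their values were seen. The fit was tested on simulated data. Alternatives were cyclic loess, housekeeping centring, genes above the median signal, a trended robust variance, only the compared groups, array weights, a replicate block, the mean of probe sets, a 1.5-fold minimum and each array left out. Promoter sequences came from RefSeq (GRCh38.p14). Python 3.11.15, pandas 2.3.3 and matplotlib 3.10.9 made tables and plots.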

Additional observations from a re-analysis of the deposited data

How the results depend on the processing

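Under the alternatives, SLC2A2 and HK2 were the only members whose JQ1 calls against DMSO held throughout. Among the other pathway genes, the JQ1 calls of EPO, STC2, KDM3A, PPARGC1A, TIGAR, TXNIP and ARRDC4 also held throughout. With JQ1 8 members were called, 19 after housekeeping centring (5.3% of them higher, against 62.5%) and 2 at 1.5-fold or more. All genes called gave 4066, 9801 (8.0% higher, against 47.1%) and 654, and 9 other pathway genes passed 1.5-fold (13.5% of those called were higher by centring, against 61.1%). Centring turned the small differences of GPI (−0.19, adjusted p = 0.0236), ALDOA (−0.19, 0.0339) and EPAS1 (−0.16, 0.0400) into called falls with JQ1; by construction it moves every gene of an array alike. With RVX-208, 5 members became 3 in the fit of the compared groups, and 0 with the replicate block (6 with an unadjusted p under 0.05) or at 1.5-fold (7). For all genes, 1120 became 4114 by centring (6.6% higher, against 48.8%), 1831 among genes above the median signal (64.5%), 2358 with the trended variance, 80 with the block and 38 at 1.5-fold; cyclic loess gave 58.3% higher. Other pathway genes gave 19, 21, 22, 1 and 0 for these 5 settings, with 15.8% higher by centring and 44.4% by cyclic loess, against 55.6%; at 1.5-fold, 35 had an unadjusted p under 0.05. Between the treatments 3 members became 6 by centring, 7 among genes above the median signal, 7 with the trended variance and 0 at 1.5-fold (9 with an unadjusted p under 0.05), and 2 with the replicate block. All genes gave 1050 with the block and 250 at 1.5-fold, with 13.9% higher by centring, against 38.1%. By centring 21.7% and by cyclic loess 55.6% of the called other pathway genes were higher, against 42.1%. They gave 11 in the fit of the compared groups, 9 with the block and 8 at 1.5-fold. Leaving out 1 array gave 5 to 8 members, 2565 to 3788 genes and 23 to 32 other pathway genes with JQ1. With RVX-208 it gave 0 to 3, 52 to 756 and 1 to 9, and between the treatments 1 to 3, 841 to 1981 and 7 to 18. The replicate block left 7 of the 8 JQ1 calls; same-numbered arrays did not deviate together (r from −0.15 to 0.08), so the numbers were not taken as pairs. The cause of these changes was not tested. With no counts, the number of arrays limits every value.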
